A study of Mus musculus with 2 samples.

Results

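The genes that encode the vascular and stromal adhesion molecules of leukocyte traffic were followed in bone marrow niche cells from transplanted mice that did or did not receive the donor cells that cause acute graft-versus-host disease (aGVHD). They were taken from the gene table by symbol: Vcam1, Icam1, Icam2, Icam4, Madcam1 and Alcam of the immunoglobulin superfamily, the selectins Sele and Selp, and the selectin ligand Selplg. All 9 symbols were found, 1 row each, among 54532 genes. Reads were present for 8 of them in the BMT library and for 5 in the aGVHD_V library, and 7 were measured, meaning that they reached an FPKM of 1 in at least 1 library. FPKM are reads per kilobase of gene length and per 1000000 of library size, so the levels of different genes can be set side by side.

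Leukocytes leave the blood in steps. Selectins on the vessel wall catch sugar-bearing ligands such as PSGL-1, encoded by Selplg, so that the cells roll, and integrins on the leukocyte then bind molecules such as VCAM-1 and ICAM-1, so that they stop and cross. In bone marrow VCAM-1 is displayed by reticular stromal cells, sinusoidal endothelium and macrophages, where it holds stem cells and lymphoid precursors through the integrin VLA-4, and E-selectin is displayed by marrow vessels. Transcription of Vcam1, Icam1 and Sele is known to be induced by inflammatory cytokines through NF-kB.

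Both groups were female CB6F1 mice that had received 2 irradiations of 4.0 Gy and, 4 hours later, bone marrow from B6.SJL mice. The BMT group received nothing else, and the aGVHD_V group also received spleen cells of female C57BL/6 mice. Age, time of harvest, the number of mice in a library and what the V stands for are not stated by the labels. Stromal cells were sorted by removing cells stained for CD45, lineage antigens or CD71, with Calcein AM and DAPI against dead cells. Each group had 1 library, so no difference has a replicate check and no test between groups was possible.

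The libraries were of similar size, with 10869191 reads over genes in BMT and 11299834 in aGVHD_V, but not of similar breadth, as 15477 and 12310 genes had reads. A detected gene most often had about 14 reads in BMT and about 44 in aGVHD_V, so an absence of reads bounds a low gene less tightly in aGVHD_V. For this reason each fold is given with a widened 95% interval in which that modal number of reads counts as 1 observation. It covers counting error only. The floor below which a gene without reads could lie undetected, 3 such observations, was 42 reads in BMT and 132 in aGVHD_V. For a gene without reads in aGVHD_V, the BMT value is given as a multiple of the aGVHD_V floor. That multiple leaves out the counting error of the BMT value.

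The labelled cell type was only in part borne out by its markers. All 10 markers of marrow stroma (reticular cells rich in CXCL12, and mesenchymal cells) were detected in BMT, with a summed FPKM of 609, and 9 of them in aGVHD_V, with a summed FPKM of 30.1. Transcripts of blood cells were abundant in both libraries in spite of the sort. The neutrophil gene S100a9 stood at an FPKM of 6959 in BMT and 9474 in aGVHD_V. No library can therefore be read as pure stroma, and in such mixed RNA fewer cells of a type and less RNA per cell cannot be told apart.

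Across the 7 measured adhesion genes, 3 differed downward in aGVHD_V by 2-fold or more on the log2(FPKM + 1) scale, none upward, and the other 4 differed by less. The lower genes were Vcam1, Sele and Alcam. The share of lower genes was 42.9%, beside a background of 19.4% lower and 8.65% higher among all 12942 measured genes. The background depended on level. Among 7504 genes whose higher FPKM was from 1 to under 10, the class of Sele and Alcam, 27.9% were lower and 9.78% higher, and among 4854 genes from 10 to under 100, the class of Vcam1, 8.20% were lower and 6.47% higher. Of the 584 genes at 100 or more, where no member lies, 2.91% were lower and 12.2% higher. The median difference of the measured members was -0.78, beside -0.07 over all measured genes. With genes at 0 set to the floor that median was 0.06 and Vcam1 alone stayed at least 2-fold lower, beside 7.76% of all measured genes. Sele and Alcam therefore count as lower only with absent reads taken as 0. With an equal FPKM sum per library 5 of 8 measured members were lower, beside 38.4% of all genes.

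**Figure D1:**
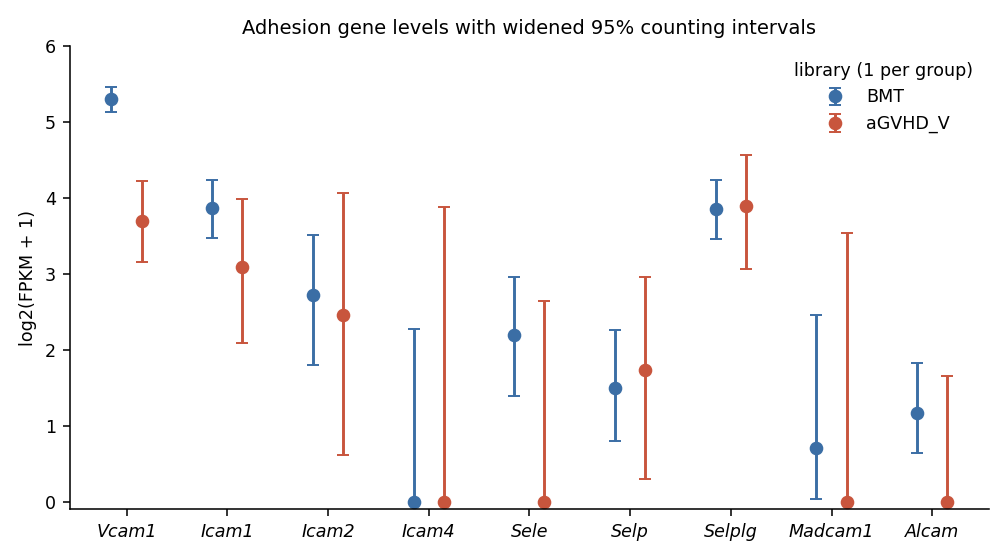
Level of each adhesion gene, as log2(FPKM + 1), in the BMT library (blue) and the aGVHD_V library (red), 1 library per group, with bars for the widened 95% counting interval. The intervals of the libraries are apart for Vcam1 and overlap for the other 8 genes.

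Vcam1 was the most abundant member in BMT and carried the largest well-counted difference. The gene (ENSMUSG00000027962) lies on chromosome 3 at 116109949 to 116129688 on the minus strand of GRCm38. It had an FPKM of 38.4 in BMT on 4126 reads and 11.9 in aGVHD_V on 1127 reads. This is 3.22-fold lower in aGVHD_V, with a widened interval of 2.12 to 4.94, and 3.01 to 3.44 when each read counts as 1 observation. The difference of -1.61 on the log2 scale was reached or passed downward by 4.57% of the 4854 genes of its level class, in which it ranked 222 from the lowest.

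Vcam1 was set beside markers of the cells that are known to carry VCAM-1, and was less far below its BMT level than the leading stromal marker. Cxcl12, the chemokine of reticular stromal cells, was 23.8-fold lower (346 against 14.6, widened interval 16.4 to 35.4). The ratio of Cxcl12 to Vcam1 was 9.03 in BMT and 1.22 in aGVHD_V, a change of 7.38-fold with a widened interval of 4.15 to 13.3. This ratio is taken inside each library and so does not depend on library scaling. Every one of the 10 stromal genes was lower by 2-fold or more, their median being -3.12. Among them Lepr, the leptin receptor, was at 29.5 in BMT, 16.8-fold above the aGVHD_V floor, and at 0 in aGVHD_V.

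Endothelial and macrophage markers gave other values. The endothelial list had 11 of 12 members measured, 6 at least 2-fold lower and none higher, and its summed FPKM was 90.3 in BMT and 22.0 in aGVHD_V. The count of lower genes was 9 with an equal FPKM sum and 3 with a pseudocount of 5, beside 38.4% and 3.89% of all measured genes. The median of -1.31 became -0.87 with genes at 0 set to the floor. Plvap, a protein of vessel fenestrae and the highest of the list, was 4.46-fold lower (32 against 7.17, widened interval 1.67 to 25.6), and the ratio of Plvap to Vcam1 changed by 1.39-fold with an interval of 0.469 to 8.62 that includes no change. The vessel junction genes Cldn5 and Cdh5 were at 0 in aGVHD_V. In BMT they were at 12.7 and 10.9, which is 1.45-fold and 3.71-fold above the aGVHD_V floor. The VEGF receptor gene Kdr was also at 0 in aGVHD_V, with a BMT value 2.74-fold above that floor. Tek and Flt1 were at 0 there too, with BMT values under the floor. Emcn (1.43 against 1.58) and Vwf (1.59 against 2.45) were not lower as deposited. These 5 genes were named after their values were seen.

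Macrophage markers were closer between the libraries, at a summed FPKM of 169 and 145, with a median difference of -0.60. Of 9 measured macrophage genes 2 were lower by 2-fold or more and none higher as deposited. With an equal FPKM sum 6 were lower, beside 38.4% of all measured genes. C1qa, a complement component made by macrophages, was at 58.1 in BMT and 75.2 in aGVHD_V. C1qc and Mertk were also higher by less than 2-fold. C1qb (46.7 against 28.6), Adgre1, Csf1r and Spic were lower by less than 2-fold on the log2(FPKM + 1) scale. The widened interval of each of these genes includes no change. All but C1qa were named after their values were seen, and C1qa alone was set against Vcam1. The ratio of Vcam1 to C1qa was 0.660 and 0.158, a change of 4.17-fold (widened interval 2.0 to 8.40). The genes lower by 2-fold or more were Cd5l, a secreted protein of tissue macrophages (16.4 against 1.29, 12.7-fold lower, interval 1.35 to 331), and the mannose receptor Mrc1 (8.22 against 2.83, 2.91-fold lower, interval 1.15 to 12.05). Vsig4, a complement receptor of resident macrophages, was at 0 in both. The part of each cell type in the Vcam1 difference was not tested.

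**Figure D2:**
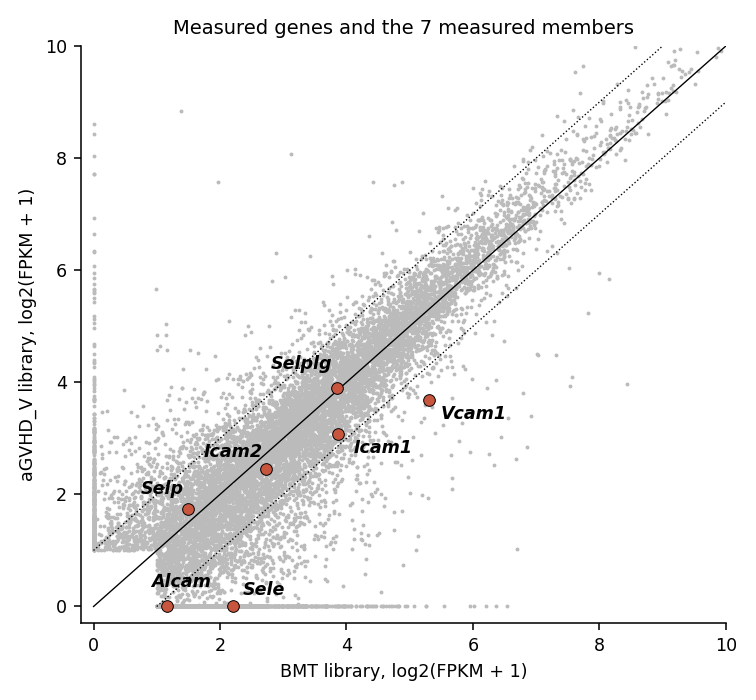
Each grey point is 1 measured gene, by its log2(FPKM + 1) in the BMT library (x axis) and the aGVHD_V library (y axis), shown up to 10 on both axes; the solid line marks equal values and the dotted lines a difference of 1. The 7 measured members are red: Vcam1 lies below the lower dotted line, Sele and Alcam lie at 0 in aGVHD_V, and Selplg, Selp and Icam2 lie near the solid line.

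Icam1, the ligand of the leukocyte integrins LFA-1 and Mac-1, was lower in aGVHD_V by less than 2-fold. The gene (ENSMUSG00000037405, chromosome 9, 21015985 to 21028817, plus strand) had an FPKM of 13.6 in BMT on 718 reads and 7.49 in aGVHD_V on 348 reads. It was 1.81-fold lower, and while the interval with each read as 1 observation was 1.59 to 2.07, the widened one of 0.840 to 4.35 includes no change. The ratio of Vcam1 to Icam1 was 2.82 in BMT and 1.59 in aGVHD_V, and the interval of that change (0.658 to 4.33 around 1.77) includes none. A larger difference of Vcam1 than of Icam1 was therefore not detectable at this depth.

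Sele, which encodes E-selectin of activated endothelium, was seen in BMT only. The gene (ENSMUSG00000026582, chromosome 1, 164048234 to 164057677, plus strand) had 127 reads and an FPKM of 3.60 in BMT and no reads in aGVHD_V. The BMT level lies under the aGVHD_V floor of 4.25 FPKM, so no fold can be bounded. Among 631 genes with 100 to 130 reads in BMT, a range chosen after the values were seen, 21.6% had no reads in aGVHD_V, and Sele is 1 of these.

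The stretches before the start sites of Icam1, Sele and Selp are shown because the first pair are textbook cytokine-induced genes with the lower FPKM in aGVHD_V, and Selp is the neighbour of Sele. For none of the 3 genes does the widened interval or floor settle a direction. Each runs 5′ to 3′ over the 250 bases before the RefSeq start (GRCm38.p6, all on the plus strand). They lie at chr9:21015690-21015939 for Icam1, chr1:164047984-164048233 for Sele and chr1:164115014-164115263 for Selp. Capitals mark matches to motifs searched on both strands: a kappaB-like GGANNTTCC, an interferon-type GAS TTCNNNGAA, a CRE-like TGACNTCA and a TATA box TATAAA.
Icam1: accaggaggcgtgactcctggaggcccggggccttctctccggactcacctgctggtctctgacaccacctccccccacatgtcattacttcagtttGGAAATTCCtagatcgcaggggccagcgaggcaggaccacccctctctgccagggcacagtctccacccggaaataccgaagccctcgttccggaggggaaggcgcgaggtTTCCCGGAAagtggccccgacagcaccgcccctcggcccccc
Sele: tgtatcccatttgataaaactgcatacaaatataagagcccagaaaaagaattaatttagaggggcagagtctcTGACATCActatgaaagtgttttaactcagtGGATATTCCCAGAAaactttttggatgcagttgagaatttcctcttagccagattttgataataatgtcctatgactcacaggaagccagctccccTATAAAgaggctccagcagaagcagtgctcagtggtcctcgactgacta
Selp: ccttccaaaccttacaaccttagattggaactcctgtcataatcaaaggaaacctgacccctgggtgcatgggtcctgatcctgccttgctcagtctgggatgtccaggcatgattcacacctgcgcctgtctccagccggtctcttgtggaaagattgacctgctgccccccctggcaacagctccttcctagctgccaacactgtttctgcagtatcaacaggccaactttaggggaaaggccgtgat

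The Icam1 window holds the kappaB-like match GGAAATTCC from 153 to 145 bases before the start and the GAS match TTCCCGGAA from 42 to 34 bases before it. The Sele window holds all 4 motifs, with the kappaB-like match GGATATTCC (145 to 137 bases before the start) overlapping the GAS match TTCCCAGAA (140 to 132 bases before it). No match to these letters was found in the Selp window. Of 32851 promoter windows of the same length, 3.59% hold the kappaB-like motif, 7.02% the GAS, 7.49% the CRE-like motif and 12.4% the TATA box. Windows were at hand for 6 members, of which 3 (Icam1, Sele and Madcam1) hold the kappaB-like motif. The motifs were chosen after the windows were seen, and a match is a description of letters, not of binding.

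Selp, which encodes P-selectin of platelet granules and endothelium, had reads in both libraries. The gene (ENSMUSG00000026580, chromosome 1, 164115264 to 164150026) starts 57587 bases beyond the end of Sele on the same strand. Its FPKM was 1.81 in BMT on 97 reads and 2.32 in aGVHD_V on 109 reads, a ratio of 1.28 with a widened interval of 0.104 to 5.36. The aGVHD_V value lies under the floor for this gene (2.81 FPKM), so neither direction can be told at this depth. The difference was 0.24 as deposited and -0.19 with each library scaled to an equal FPKM sum.

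Markers of platelets and their precursors, a known source of P-selectin, were mostly higher beside this as deposited. Of 8 measured genes 5 were at least 2-fold higher as deposited (1 with an equal FPKM sum) and 2 lower. Among all measured genes 8.65% were higher and 19.4% lower as deposited. The lower platelet genes were Tubb1 (8.50 against 3.14, widened interval of the fold 0.398 to 121) and Treml1 (1.12 against 0). The BMT value of Treml1 lies under the aGVHD_V floor. Ppbp was near equal at 29.2 and 28.3. Tubb1, Treml1 and Ppbp were named after their values were seen. The summed FPKM was 91.1 in BMT and 284 in aGVHD_V. Pf4, platelet factor 4, was 6.72-fold higher (28.4 against 191, widened interval 3.58 to 12.4), and Itga2b, the platelet integrin CD41, 2.82-fold higher (7.38 against 20.8, interval 1.68 to 4.84). The ratio of Pf4 to Selp was 15.6 in BMT and 82.3 in aGVHD_V, and the widened interval of the BMT ratio over the aGVHD_V ratio, 0.0148 to 0.963 around 0.190, does not include 1. Pf4 had the largest difference of the list, and no other platelet gene was set against Selp. The part of platelet RNA in the Selp level was not tested.

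Selplg, the gene of PSGL-1 on leukocytes, was level between the libraries. It (ENSMUSG00000048163, chromosome 5, 113818536 to 113832644, minus strand) had an FPKM of 13.4 in BMT on 693 reads and 13.9 in aGVHD_V on 635 reads. The ratio was 1.04 with a widened interval of 0.511 to 1.84, which leaves out a difference as large as that of Vcam1. The change in the ratio of Vcam1 to Selplg, from 2.87 in BMT to 0.855 in aGVHD_V, was 3.35-fold with a widened interval of 1.43 to 6.80. Its direction was higher as deposited and lower with library sizes of all recovered reads (-0.17), without hemoglobin, mitochondrial and ribosomal protein genes (-0.03) and with an equal FPKM sum (-0.50).

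Icam2, a constitutive ligand of LFA-1 on endothelium, platelets and leukocytes, had close values, but neither direction can be told at this depth. This gene (ENSMUSG00000001029, chromosome 11, 106377656 to 106388075, minus strand) had an FPKM of 5.59 in BMT on 129 reads and 4.48 in aGVHD_V on 91 reads. It was 1.25-fold lower, with intervals of 0.946 to 1.65 by reads and 0.261 to 11.97 when widened, both of which include no change. The aGVHD_V value lies under the floor for this short transcript, 6.50 FPKM.

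**Figure D3:**
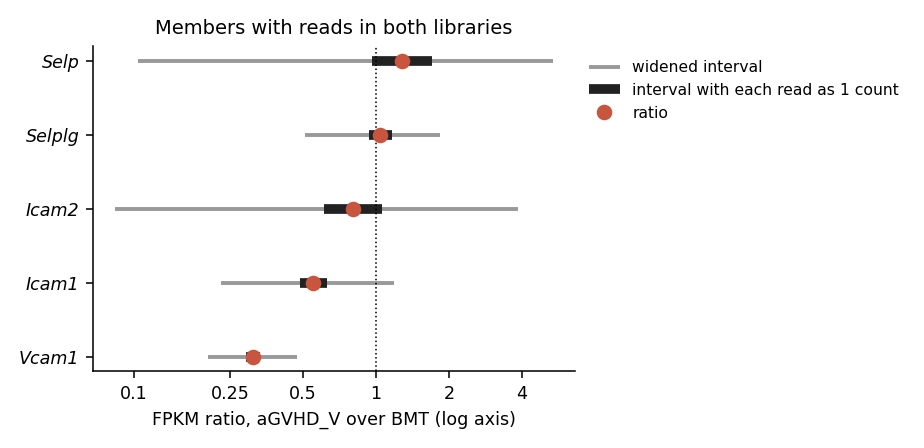
FPKM ratio of the aGVHD_V over the BMT library (log axis) for the 5 adhesion genes with reads in both, with the thick bar for the 95% interval that counts each read and the thin grey bar for the widened interval. Only the widened interval of Vcam1, 0.202 to 0.471, leaves out the dotted line at 1.

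The remaining members were low. Alcam, the ligand of the T cell protein CD6 (ENSMUSG00000022636, chromosome 16, 52248996 to 52454074), had 107 reads and an FPKM of 1.24 in BMT and none in aGVHD_V, where the floor for this long transcript was 1.74 FPKM. Madcam1, the addressin of gut vessels that binds integrin alpha4beta7 (ENSMUSG00000020310, chromosome 10, 79664559 to 79668537), had 11 reads in BMT, an FPKM of 0.632, and none in aGVHD_V. Icam4, known in humans as a blood group antigen of red cells (ENSMUSG00000001014, chromosome 9, 21029373 to 21030595), begins 556 bases after the end of Icam1 and had no reads in either library. Its floor was 3.12 FPKM in BMT and 11.2 in aGVHD_V, so a low level was not detectable. It was without reads although erythroid markers were abundant, with a summed FPKM of 37471 in BMT and 132468 in aGVHD_V. The globin genes Hba-a1 (3.94-fold higher) and Hbb-bs (3.32-fold higher) led these sums. Of 9 measured erythroid genes 4 were at least 2-fold higher, none lower and 5 within 2-fold, with a median of 0.78. With an equal FPKM sum 2 were higher and the median was 0.21.

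The order of the members differed between the libraries. In BMT Vcam1 made up 49.1% of the summed FPKM of the members, which was 78.2, followed by Icam1 with 17.4%, Selplg with 17.1%, Icam2 with 7.15%, Sele with 4.60%, Selp with 2.32%, Alcam with 1.58% and Madcam1 with 0.808%. The widened interval of Vcam1 in BMT (34.1 to 43.0 FPKM) lay above those of Icam1 (10.1 to 17.8) and Selplg (10.03 to 17.8), which did not differ from each other beyond counting error. Icam2 (2.495 to 10.4) overlapped the interval of Icam1 and those of Sele (1.63 to 6.77) and Selp (0.736 to 3.77).

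In aGVHD_V the sum was 40.1, and Selplg came first with 34.7%, then Vcam1 with 29.7%, Icam1 with 18.6%, Icam2 with 11.2% and Selp with 5.77%. There the intervals of Selplg (7.39 to 22.7), Vcam1 (7.90 to 17.7) and Icam1 (3.27 to 14.9) overlapped, as did those of Icam2 (0.525 to 15.7) and Selp (0.227 to 6.76). Without Vcam1 the summed FPKM of the members was 39.8 in BMT and 28.2 in aGVHD_V.

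The integrins and other receptors that bind the immunoglobulin-type members lay mostly within 2-fold. Of 9 receptor genes, all measured, 2 were lower by 2-fold or more and none higher, and the median difference was 0.09, or -0.47 with an equal FPKM sum. Itgb2, the shared chain of LFA-1 and Mac-1 and the highest of the list, was at 89.4 in BMT and 97.6 in aGVHD_V, a ratio of 1.09 (widened interval 0.826 to 1.43). The lower genes, named after their values were seen, were Itga9, which pairs with beta1 to bind VCAM-1, and Itgax. Itga9 was at 2.35 against 0, its BMT value 1.46-fold above the aGVHD_V floor. Itgax was at 1.60 against 0, its BMT value under that floor. The chains of VLA-4, also named after their values were seen, were near equal, with Itga4 at 14.2 and 15.1 and Itgb1 at 74.5 and 78.6. Itgb7, the beta7 chain, likewise named afterwards, was 1.89-fold higher as deposited (19.8 against 37.4, widened interval 1.12 to 3.15). Its log2 difference was 0.89 as deposited and 0.34 with an equal FPKM sum.

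Genes of the selectin side also lay mostly within 2-fold as deposited. Among 6 measured carriers of selectin ligands, a list that also holds L-selectin, 1 was at least 2-fold higher and none lower. It was Podxl, the sialomucin podocalyxin (1.95 against 8.84, 4.52-fold higher, widened interval 1.84 to 12.8). Cd24a, a small glycoprotein that can bind P-selectin, was the most abundant at 581 and 966, 1.66-fold higher as deposited (interval 1.51 to 1.83). Its log2 difference was 0.73 as deposited and 0.15 with an equal FPKM sum. Of 9 measured enzymes that build selectin ligands 1 was lower and none higher, with a median of 0.23. With an equal FPKM sum 4 were lower, beside 38.4% of all measured genes, and the median was -0.33. The lower enzyme was the sulfotransferase gene Chst2, named after its values were seen (2.59 against 0.525), and its widened interval of 0.695 to 188 includes no change. B4galt1, a galactosyltransferase and the highest of these, was at 24.1 and 28.4.

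Other molecules of leukocyte passage had 8 measured genes, of which 2 were lower by 2-fold or more and none higher. Pecam1, the junction protein CD31, was lower at 7.65 against 2.41 (widened interval of the fold 1.04 to 11.02), and the other was Cdh5. Mcam, an adhesion protein of endothelium and mural cells, was at 10.7 and 10.6.

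Cytokine genes known to induce the members, with the NF-kB genes and their feedback, gave no common direction as deposited. Among the 19 genes, all measured, 2 were lower by 2-fold or more, 1 was higher, and the median was -0.23. With an equal FPKM sum 7 were lower, beside 38.4% of all measured genes, none was higher, and the median was -0.80. Tnf was at 12.4 in BMT and 26.5 in aGVHD_V, and its widened interval (0.932 to 4.88 around 2.13) includes no change. Il1a (6.98 against 0.760) and Ifng (5.86 against 1.01) were lower on 16 and 14 reads in aGVHD_V, under the floor. Nfkbia, the NF-kB inhibitor that NF-kB itself induces, was 1.52-fold higher as deposited (163 against 248, interval 1.19 to 1.95). Its log2 difference was 0.60 as deposited and 0.03 with an equal FPKM sum. The feedback genes Tnfaip3, Birc3 and Traf1, named after their values were seen, differed by -0.30, -0.84 and -0.92 as deposited. The widened interval of each of them includes no change. Irf1, an interferon-induced factor named after its values were seen, was 1.63-fold lower (47.9 against 29.4, interval 1.10 to 2.56).

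**Figure D4:**
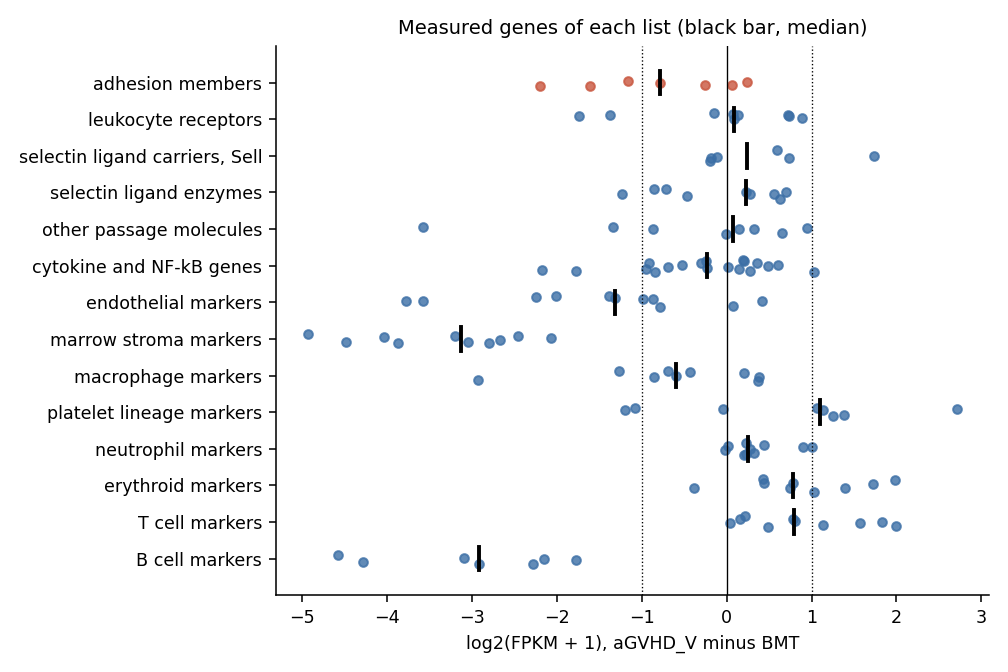
Difference in log2(FPKM + 1), aGVHD_V minus BMT, of each measured gene (points) in the adhesion group (red) and in the pathway and marker lists (blue), with black bars for medians and dotted lines at -1 and 1. The adhesion group has a median of -0.78, the marrow stroma markers of -3.12, the endothelial markers of -1.31 and the leukocyte receptors of 0.09.

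Lymphocyte markers, which bear on the leukocyte-borne genes, had lower values for B cells and, as deposited, higher values for T cells. Each T cell gene taken alone was within counting error. Of 10 T cell genes 4 were at least 2-fold higher and none lower, with summed FPKM of 49.7 in BMT and 115 in aGVHD_V. The higher genes include Cd3d (0.954 against 6.77), Trbc1 (5.95 against 23.7) and Trbc2 (12.2 against 38.1). The widened interval of each of the 10 T cell genes includes no change. Their differences ran from 0.04 to 1.99 as deposited, and no interval was computed for the list. All 7 measured B cell genes were lower, with 6 of the 8 on the list at 0 in aGVHD_V, and the median of -2.92 became -0.97 with genes at 0 set to the floor. Cd79b was at 23.0 against 0, its BMT value 2.66-fold above the aGVHD_V floor, and Cd79a at 22.2 against 0.193. None of 10 neutrophil genes was outside 2-fold, with Camp at 1170 and 2335 and Retnlg at 632 and 1177. The part of these cells in the level of Selplg, Icam1 or Icam2 was not tested.

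The genes nearest to a member in the plane of both levels were found for the 4 members with an FPKM of at least 5, by distance on the log2(FPKM + 1) scale over the 2 libraries. Nearest to Vcam1 were Kdelr2 (36.9 and 11.1), Pim3 (39.8 and 10.9) and Clu (33.6 and 12.3), at distances of 0.106, 0.133 and 0.191. Nearest to Icam1 were Itga5, Ints7 and Ciao1, to Icam2 Entpd5, Pofut2 and Zfp664, and to Selplg Atp7b, Wrn and Pxn, all within 0.051.

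**Figure D5:**
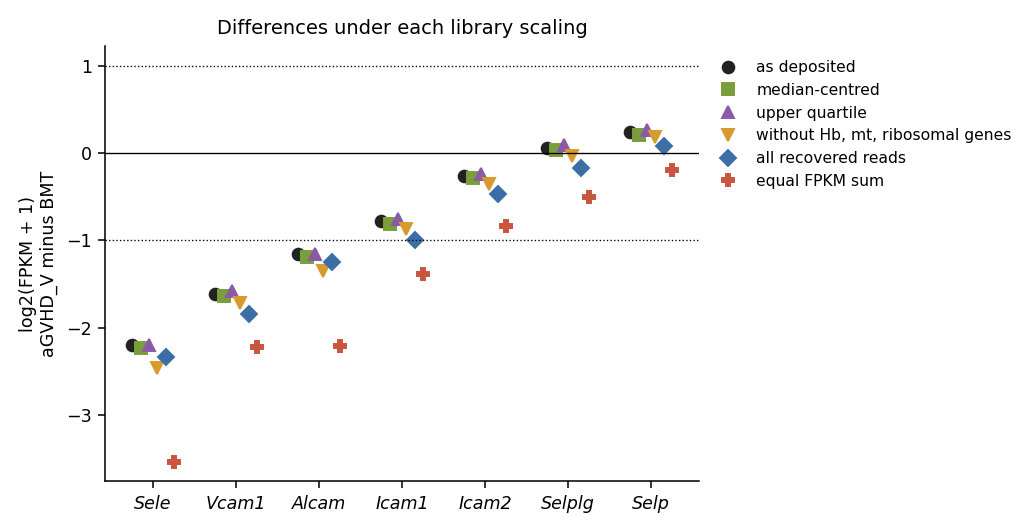
Difference in log2(FPKM + 1), aGVHD_V minus BMT, of the 7 measured members under 6 library scalings (symbols), with dotted lines at -1 and 1. Vcam1 lies between -2.22 and -1.58, Icam1 reaches -1.38 with an equal FPKM sum, and Selplg and Selp lie on both sides of 0.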

How the data were processed

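RNA of sorted bone marrow niche cells was sequenced in 1 BMT and 1 aGVHD_V library. The deposited values are FPKM per gene, computed by the authors; edgeR 3.18.1 and the builds GRCm38 and mm10 are named in the submitters' processing notes, and no aligner, counter or strand setting is named there. Gene lengths are other values given per gene in the deposited table. The table has 1 more column of sample values, which fits none of the labels and entered no step.

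FPKM multiplied by gene length gave whole multiples of 1 step per library for 100.0% of values above 0 (tolerance 0.05), which recovered the reads. The authors' library sizes, 12127105 for BMT and 10661688 for aGVHD_V, were 1.12 and 0.944 times the recovered totals. The modal read number of a detected gene (read numbers from 4, moving window of 7) was 14 and 44. Ratio intervals are exact conditional binomial (Clopper-Pearson) at 95%, level intervals exact Poisson, and intervals of ratios between genes conditional odds ratios, all with reads divided by the modal number unless stated. No test between groups was made.

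All 9 members matched GENCODE M21 (GRCm38) in identifier, start and end. Antisense genes overlap Vcam1, Icam1, Icam4 and Selp, and all had 0 reads. Promoter sequences are from RefSeq (GRCm38.p6). Vcam1, Icam2 and Selplg had no entry. Named genes were all members, from each pathway list the highest gene and those at least 2-fold different with an FPKM of 5 or more, and from each marker list the highest gene and the 2 largest differences. Members and lists were chosen with earlier results of these data known. Scripts were tested on simulated data. Python 3.11.15, numpy 2.4.6, pandas 2.3.3 and scipy 1.17.1 were used.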

Additional observations from a re-analysis of the deposited data

How the results depend on the processing

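Each result was recomputed under 8 alternatives for a gene and 10 for the counts and the median of the members. No paired analysis was possible because each group has 1 library. Of 102 recomputed values, 79 stayed within the widened counting interval of the main value or within 1.5 times the count. Another 21 moved outside it, and 2 reversed (Sele and Alcam with genes at 0 set to the floor). The 79 are not a count of stable signs. Selplg and Selp are among them although their small differences changed sign, and ran from -0.50 to 0.09 and from -0.19 to 0.34. With genes at 0 set to the floor, so are Madcam1 (-0.71 to 2.56) and the median over members (-0.78 to 0.06). The number of members at least 2-fold lower was 3 as deposited, beside 19.4% of all measured genes. It was 1 (Vcam1) with an FPKM minimum of 5, with a pseudocount of 5 and with genes at 0 set to the floor. The shares over all measured genes in these settings were 10.7%, 3.89% and 7.76%. The number was 5 with an equal FPKM sum, beside 38.4%, and 4 with library sizes of all recovered reads, beside 23.5%. No alternative put a measured member at least 2-fold higher. The median over members ran from -1.45 to 0.06. Equal FPKM sums moved the median of genes measured in both libraries by -0.55 and library sizes of all recovered reads by -0.21. Relative to the median gene, Vcam1 stayed at -1.70 and -1.65 under these.

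Vcam1 ran from -2.22 (equal FPKM sum) to -1.36 (pseudocount 5). For genes without reads in aGVHD_V the value follows from the setting. With genes at 0 set to the floor, Sele reversed to 0.19 and Alcam to 0.29, and Madcam1, which is not measured, went from -0.71 to 2.56, because the floor lies above their BMT level. With a pseudocount of 0.1 Sele was at -5.21, Alcam at -3.74 and Madcam1 at -2.87. With an equal FPKM sum they were at -3.53, -2.21 and -1.51, with library sizes of all recovered reads at -2.33, -1.25 and -0.77, without hemoglobin, mitochondrial and ribosomal protein genes at -2.46, -1.35 and -0.84, and centred on the median gene at -2.23, -1.19 and -0.73. Centring put Icam4, which has no reads, at -0.03. With 1 library per group and a modal read number of 44 in aGVHD_V, a gene under about 132 reads there could be told apart from its BMT level only where that level was well above the floor, which was so for no adhesion gene.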
